A study of Danio rerio with 12 samples.

Results

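The cytokine genes followed here in neutrophils of zebrafish larvae after spinal cord transection were il1b, tnfa, tnfb, cxcl8a, il10, tgfb1a, tgfb1b and il34. They were chosen by name as inflammatory and anti-inflammatory signals, and all 8 of 8 were found by their symbol among 31263 entries of the count table. Of these, 7 passed the filter on low counts (tnfa did not), as did 8453 entries in all. The identifiers in the table are ENSDARG00000098700 for il1b, ENSDARG00000009511 for tnfa, ENSDARG00000013598 for tnfb, ENSDARG00000104795 for cxcl8a, ENSDARG00000078147 for il10, ENSDARG00000041502 for tgfb1a, ENSDARG00000034895 for tgfb1b and ENSDARG00000091003 for il34.

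The cells carried GFP under the mpx promoter, which drives expression in neutrophils, and GFP-positive cells were sorted from dissociated trunks. The spinal cord was cut in larvae at 3 days post-fertilization, and the trunk region around the cut, or the same region of uninjured larvae of the same age, was collected at 8 hours post-injury. Larvae received either DMSO, the solvent, or 25 µM AMD3100 with 0.1% DMSO, the latter between 4 and 8 hours post-injury. The labels do not state the DMSO concentration or incubation window of the DMSO groups, or whether uninjured larvae had the same window. AMD3100 blocks Cxcr4, the receptor of the chemokine Cxcl12. The 4 groups therefore combined injured or uninjured larvae with DMSO or AMD3100, with 3 libraries each, and all of them carried the transgene. Each library was made from 2500 to 4800 sorted cells, so that larvae were pooled, and replicates are labelled as biological. Nothing in the labels ties a library to a clutch or a day, so p-values measure the spread between these libraries.

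Il1b and Tnf are secreted by activated myeloid cells, bind receptors on neighbouring cells and switch on genes through the transcription factor NF-kB. Cxcl8 is the chemokine that draws neutrophils to a wound through Cxcr1 and Cxcr2. Il10 acts through Jak1 and Stat3 to restrain production of such cytokines, and Tgfb1 is released in a latent form and signals through Smad proteins in both inflammation and repair. Il34 is a ligand of the colony-stimulating factor 1 receptor, which macrophages and microglia depend on. In zebrafish larvae, neutrophils are among the earliest cells to reach a spinal lesion.

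The total count per library ranged from 655451 to 12173133. The shallowest library was injured AMD3100 replicate 1, which also had the lowest EGFP level, at 397 CPM (counts scaled by library size alone), where the other 11 libraries held 1326 to 1935. The neutrophil genes mpx and lyz were abundant in every library, at no less than 937 and 1653 CPM. Other neutrophil genes included npsn at 6783 to 35403 CPM, cxcr1 at 21.9 to 83.9 CPM and csf3r at 0 to 9.08 CPM. Of 14 macrophage genes found, ctss2.1 stood at 503 to 1267 CPM and the other 13 at 0 to 23.6 CPM, among them mpeg1.1 at 2.47 to 14.1 CPM and mfap4 with a count of 0 in all 12 libraries. The summed share of a neutrophil marker list was lower in injured libraries: 2.44% to 3.37% against 3.99% to 4.42% in DMSO, and 2.63% to 3.61% against 4.50% to 6.35% in AMD3100. Mitochondrial transcripts made up 29.9% to 32.1% of counts in uninjured DMSO and 19.1% to 26.9% in injured DMSO. With AMD3100 the ranges were 17.9% to 21.4% in uninjured and 14.2% to 27.8% in injured larvae. Skeletal muscle genes made up 0.134% to 1.76% of counts in uninjured DMSO, 0.0810% to 0.974% in injured DMSO, 1.27% to 4.21% in uninjured AMD3100 and 0.154% to 1.34% in injured AMD3100. The part of these shares in the results that follow was not tested, except that fold changes were also computed without mitochondrial and hemoglobin genes. In such bulk samples, fewer cells of a type and less RNA per cell cannot be told apart.

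Injury went with higher transcript levels of several cytokines, and 3 genes passed the test: tnfb, cxcl8a and il10 rose when injury was averaged over both treatments, and none fell. In that comparison 16% of all tested entries, 7.97% upwards and 8.01% downwards, passed at an adjusted p under 0.05 in edgeR's quasi-likelihood test. The count filter asked for 1.98 CPM or more, by library size alone, in at least 3 libraries, and il1b, tnfb and il34 reached this in all 12. Of the other 4 tested genes, il10 and cxcl8a reached it in injured libraries only, and tgfb1b in 6 injured and 1 uninjured. The tgfb1a gene reached it in 3 uninjured and 1 injured, all of them in DMSO. These 4 entered the test through the side where they were high, so their calls and separations are given as values and counts over the 7 support nothing. Within DMSO alone none of the 7 tested cytokine genes passed, where 5.19% of entries did. Within AMD3100 alone none passed either, where 5.42% of entries did. An unadjusted p under 0.05 was found for 5 of the 7 in DMSO and 2 in AMD3100, beside 19.9% and 19.8% of all tested entries. Those in DMSO were il1b, tnfb, il10, tgfb1a and tgfb1b, and those in AMD3100 were il10 and cxcl8a. Of these genes only il1b and tnfb reached the filter level in every library, so these counts too support nothing. DESeq2 called 1 of the 7 in each of these comparisons, tnfb in DMSO and cxcl8a in AMD3100, and limma-voom called tnfb in DMSO and none in AMD3100.

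The 3 injured DMSO libraries lay apart from the 3 uninjured DMSO libraries for all 7 tested genes. In 6 of them every injured library was above every uninjured one, as in 15.9% of tested entries, and in 1, tgfb1a, every injured library was below, as in 13.7% of entries. For il10 and cxcl8a a count of 0 in uninjured DMSO replicate 2 allows up to 2.19 CPM, which leaves their separation in DMSO unresolved. With AMD3100, 3 of the 7 (tnfb, cxcl8a and tgfb1b) were separated upwards, as were 10.5% of entries. Over all 6 injured and 6 uninjured libraries, cxcl8a and tgfb1b were separated upwards, as were 4.73% of entries, although each has an uninjured library with a count of 0. For tgfb1b this was close to a tie, with 2.20 CPM in the lowest injured library and 2.17 CPM in the highest uninjured one. Within AMD3100 these levels of tgfb1b were 2.20 and 2.02 CPM. Of the 3 genes that reached the filter level in every library, all were separated upwards in DMSO, only tnfb in AMD3100, and none over both.

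**Figure D1:**
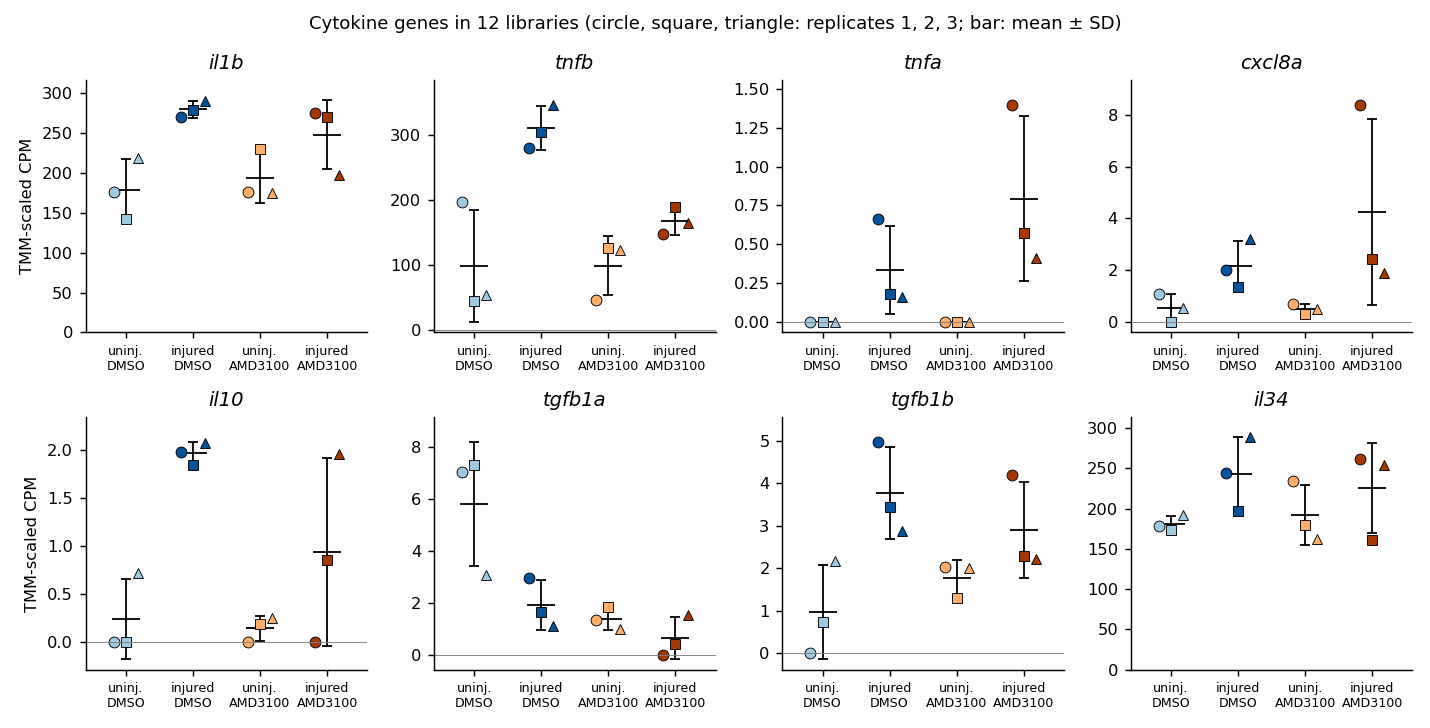
Level of each cytokine gene (TMM-scaled CPM, linear axes that differ between panels) in the 12 libraries by group, with the group mean and SD. The injured DMSO libraries lie above the uninjured DMSO libraries for every gene shown except tgfb1a, where they lie below, and tnfa is at 0 in all 6 uninjured libraries. For tnfa, il10 and cxcl8a, counts of 0 in uninjured DMSO leave this separation unresolved.

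The tnfb transcript, from one of the zebrafish counterparts of the mammalian TNF gene, was counted 61 to 3469 times per library. Its levels, scaled by TMM factors as are all CPM except those of EGFP, were 198, 44.5 and 54.2 CPM in uninjured DMSO replicates 1 to 3 and 280.3, 306 and 347 CPM in injured DMSO. They were 46.4, 126 and 123 CPM in uninjured AMD3100 and 148, 189.6 and 165 CPM in injured AMD3100. Within each treatment the injured libraries were above all uninjured ones, but uninjured DMSO replicate 1 exceeded every injured AMD3100 library.

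Averaged over treatments, tnfb rose by 1.21 on the log2 scale (SE 0.34, 95% interval 0.48 to 1.94, edgeR adjusted p 0.0263). The group means were 98.9 ± 85.9 and 311 ± 33.6 CPM in uninjured and injured DMSO (SD, n = 3 libraries each), and the log2 fold change there was 1.66 (SE 0.49, edgeR adjusted p 0.0648). Uninjured DMSO replicate 1 set that spread: without it the log2 fold change in DMSO was 2.65 and the edgeR adjusted p 0.00464. Leaving out uninjured DMSO replicate 2 or 3 instead weakened it, to 1.33 and 1.36 (edgeR adjusted p 0.200 and 0.207). Without injured DMSO replicate 1, 2 or 3 it was 1.74, 1.65 and 1.56 (edgeR adjusted p 0.111, 0.149 and 0.168). In AMD3100 the means were 98.8 ± 45.4 and 167 ± 20.8 CPM, with a log2 fold change of 0.76 (SE 0.48, edgeR adjusted p 0.408). The call for both treatments together was lost on leaving out uninjured DMSO replicate 2 or 3 or injured DMSO replicate 3 (adjusted p 0.0563, 0.0566 and 0.0506), and without mitochondrial and hemoglobin genes the value was 1.23.

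The other Tnf gene, tnfa, lay at the edge of detection. It had 2, 2 and 1 counts in the injured DMSO libraries and 1, 4 and 5 counts in the injured AMD3100 libraries, and a count of 0 in each of the 6 uninjured libraries. All 15 counts therefore came from the injured libraries, which together held 37584936 counts against 28922158 in the uninjured ones. A count of 0 allows up to 2.19 CPM in the shallowest uninjured library and 0.276 CPM in the deepest, by counting error only. The injured DMSO libraries held 0.160 to 0.662 CPM, so that their separation from uninjured DMSO is not resolved at this depth.

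The mean of tnfa was 0.563 ± 0.457 CPM over the 6 injured libraries. Its pooled level after injury was 3.28-fold a floor of 3 counts over the uninjured group. This ratio leaves out the error of the 15 injured counts and the spread between libraries, so it is not a minimum. Leaving out each library in turn gave ratios from 1.94-fold to 3.94-fold. When all entries with a count were kept, edgeR gave tnfa an adjusted p of 0.0963 for injury averaged over treatments.

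The il1b transcript, which encodes the pro-inflammatory interleukin processed by inflammasome caspases, had at least 194 counts in every library. Its levels were 176, 142 and 219 CPM in uninjured DMSO and 270.1, 279 and 291 CPM in injured DMSO. They were 176, 230.1 and 175 CPM in uninjured AMD3100 and 275, 271 and 198 CPM in injured AMD3100. The DMSO groups did not overlap, whereas injured AMD3100 replicate 3 was below uninjured AMD3100 replicate 2.

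Averaged over treatments the log2 fold change of il1b was 0.50 (SE 0.18, 95% interval 0.12 to 0.87), and it missed the threshold (edgeR adjusted p 0.0685). It passed in DESeq2 (adjusted p 0.0350), in limma-voom (0.0463) and in edgeR without injured AMD3100 replicate 3 (0.0396). In the other 11 fits that each left out a library il1b did not pass (edgeR adjusted p up to 0.156). With no filter its edgeR adjusted p was 0.161. Within DMSO the log2 fold change was 0.64 (SE 0.25) and within AMD3100 0.35 (SE 0.25). The injured DMSO libraries agreed closely, with a coefficient of variation of 3.71%, against 21.5% in uninjured DMSO.

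The interval for the mean change in tnfb reached from 1.40-fold to 3.83-fold and that for il1b from 1.09-fold to 1.83-fold, so they share a range. Within each library the number of tnfb counts per il1b count could be compared directly. It was 1.12, 0.314 and 0.248 in uninjured DMSO and 1.04, 1.1 and 1.19 in injured DMSO. It was 0.263, 0.550 and 0.705 in uninjured AMD3100 and 0.538, 0.700 and 0.832 in injured AMD3100. All 3 injured DMSO libraries were above all 3 injured AMD3100 libraries, whereas uninjured DMSO replicate 1 stood with the injured DMSO libraries and the other two lay at the low end. The ratio was not tested, and it is made of the same tnfb counts as the levels above. It is therefore no separate evidence for an effect of AMD3100.

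**Figure D2:**
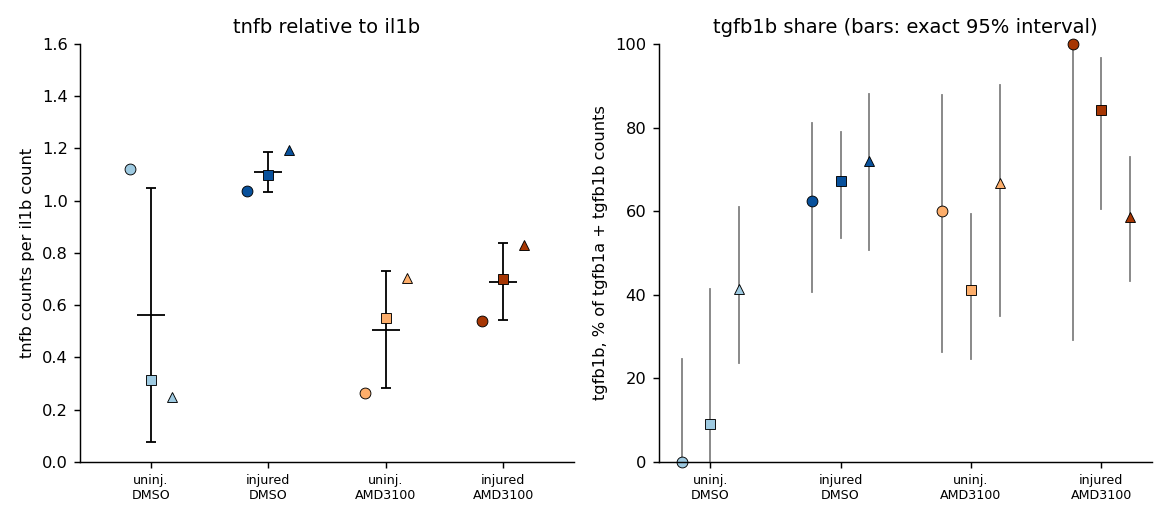
Left, tnfb counts per il1b count in each library with the group mean and SD; right, tgfb1b counts as a percentage of tgfb1a plus tgfb1b counts, with exact 95% binomial intervals for counting error. The injured DMSO libraries lie at 1.04 to 1.19 tnfb counts per il1b count, above the 0.538 to 0.832 of injured AMD3100, and tgfb1b was 62.5% to 72% of the pair in injured DMSO against 0% to 41.4% in uninjured DMSO. Neither measure was tested, and tgfb1a and tgfb1b each passed the count filter through the side where it was high.

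The chemokine gene cxcl8a was rare, with 0 to 23 counts per library. Uninjured DMSO libraries had 2, 0 and 3 counts and uninjured AMD3100 libraries 2, 3 and 2. Injured DMSO libraries had 6, 15 and 20 counts (1.99, 1.32 and 3.20 CPM) and injured AMD3100 libraries 6, 17 and 23 (8.39, 2.44 and 1.88 CPM). Every injured library lay above every uninjured one, whose highest level was 1.08 CPM, and the highest of all came from 6 counts in the shallowest library. The count of 0 in uninjured DMSO replicate 2 allows up to 2.19 CPM, more than 3 of the injured libraries held, so that this separation is not resolved at that depth.

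Averaged over treatments cxcl8a, which passed the count filter through 4 injured and 0 uninjured libraries, rose by 2.39 on the log2 scale (SE 0.65, 95% interval 1.00 to 3.79, edgeR adjusted p 0.0226). The log2 fold change was 1.87 (SE 0.94, adjusted p 0.283) in DMSO and 2.92 (SE 0.92, adjusted p 0.0802) in AMD3100 by edgeR. Without injured AMD3100 replicate 1, the shallowest library, the averaged value was 2.07 (adjusted p 0.0369) and the value in AMD3100 was 2.25 (adjusted p 0.171). The averaged call missed the threshold when any of 3 libraries was left out: replicate 3 of uninjured DMSO (adjusted p 0.0575), replicate 3 of injured DMSO (0.0678) or replicate 2 of uninjured AMD3100 (0.0721).

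The anti-inflammatory gene il10 had 0, 0 and 4 counts in uninjured DMSO and 6, 21 and 13 counts in injured DMSO. It had 0, 2 and 1 counts in uninjured AMD3100 and 0, 6 and 24 counts in injured AMD3100. Its level was 1.97 ± 0.11 CPM in injured DMSO (SD, n = 3), with all 3 libraries above the uninjured ones, and 0.940 ± 0.982 CPM in injured AMD3100, where replicate 1 had no count. In that shallow library a count of 0 allows up to 4.19 CPM, above the level of every other library. In uninjured DMSO replicate 2 a count of 0 allows up to 2.19 CPM, above the 1.85 to 2.08 CPM of injured DMSO. The separation in DMSO is therefore not resolved at that depth.

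Averaged over treatments il10, which passed the count filter through the 3 injured DMSO libraries alone, rose by 2.52 on the log2 scale (SE 0.74, 95% interval 0.94 to 4.11, edgeR adjusted p 0.0314). In all, 70 of its 77 counts came from injured libraries. The log2 fold change was 2.28 (SE 1.03, adjusted p 0.232) in DMSO and 2.77 (SE 1.07, adjusted p 0.157) in AMD3100 by edgeR. This call rested on few counts: on leaving out each library in turn, il10 fell below the count filter in 6 of 12 fits and passed the test in 1 of the other 6, and with no filter its adjusted p was 0.0584.

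The paralogs tgfb1a and tgfb1b, which both encode a Tgfb1 ligand, lay on opposite sides of the injury comparison in DMSO. Each passed the count filter through the side where it was high. Their opposite directions, and the shares built on them, are therefore given as values only. For tgfb1a the uninjured DMSO libraries had 13, 10 and 17 counts (7.05, 7.30 and 3.08 CPM) and the injured DMSO libraries 9, 19 and 7 (2.98, 1.68 and 1.12 CPM). For tgfb1b the uninjured DMSO libraries had 0, 1 and 12 counts (0, 0.730 and 2.17 CPM) and the injured DMSO libraries 15, 39 and 18 (4.96, 3.44 and 2.88 CPM). The lowest uninjured tgfb1a level in DMSO, 3.08 CPM, was close to the highest injured one, 2.98 CPM. With AMD3100, tgfb1b had 6, 14 and 8 counts in uninjured libraries (2.02, 1.29 and 2.00 CPM). The injured AMD3100 libraries had 3, 16 and 27 counts of tgfb1b (4.19, 2.29 and 2.20 CPM).

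Neither paralog passed the test. In DMSO the log2 fold change was -1.59 for tgfb1a (SE 0.71, edgeR adjusted p 0.225) and 1.61 for tgfb1b (SE 0.75, edgeR adjusted p 0.243). In AMD3100 the values were -0.63 (SE 0.76) and 0.58 (SE 0.73), both within 1 SE of 0. Averaged over treatments they were -1.11 (95% interval -2.22 to -0.0012, edgeR adjusted p 0.165) and 1.09 (95% interval -0.02 to 2.20, edgeR adjusted p 0.172).

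As a share of the counts of both paralogs, tgfb1b made up 0%, 9.09% and 41.4% in uninjured DMSO and 62.5%, 67.2% and 72% in injured DMSO. The exact 95% binomial interval of the lowest injured DMSO share, 40.6% to 81.2%, overlaps that of the highest uninjured DMSO share, 23.5% to 61.1%. In uninjured AMD3100 the shares were 60%, 41.2% and 66.7%, and in injured AMD3100 they were 100%, 84.2% and 58.7%, the 100% from 3 counts. The AMD3100 groups overlap, and 2 of the 3 uninjured AMD3100 libraries exceed every uninjured DMSO library. These intervals cover counting error only.

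The il34 transcript, for the macrophage growth and survival factor, had at least 187 counts in every library. Its levels were 178, 174 and 192 CPM in uninjured DMSO and 244, 197 and 289 CPM in injured DMSO. They were 234, 179 and 163 CPM in uninjured AMD3100 and 261, 161 and 254 CPM in injured AMD3100, where the groups overlap. The log2 fold change averaged over treatments was 0.33 (SE 0.19, 95% interval -0.07 to 0.72, edgeR adjusted p 0.262), an interval that leaves out a rise of more than 1.65-fold.

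**Figure D3:**
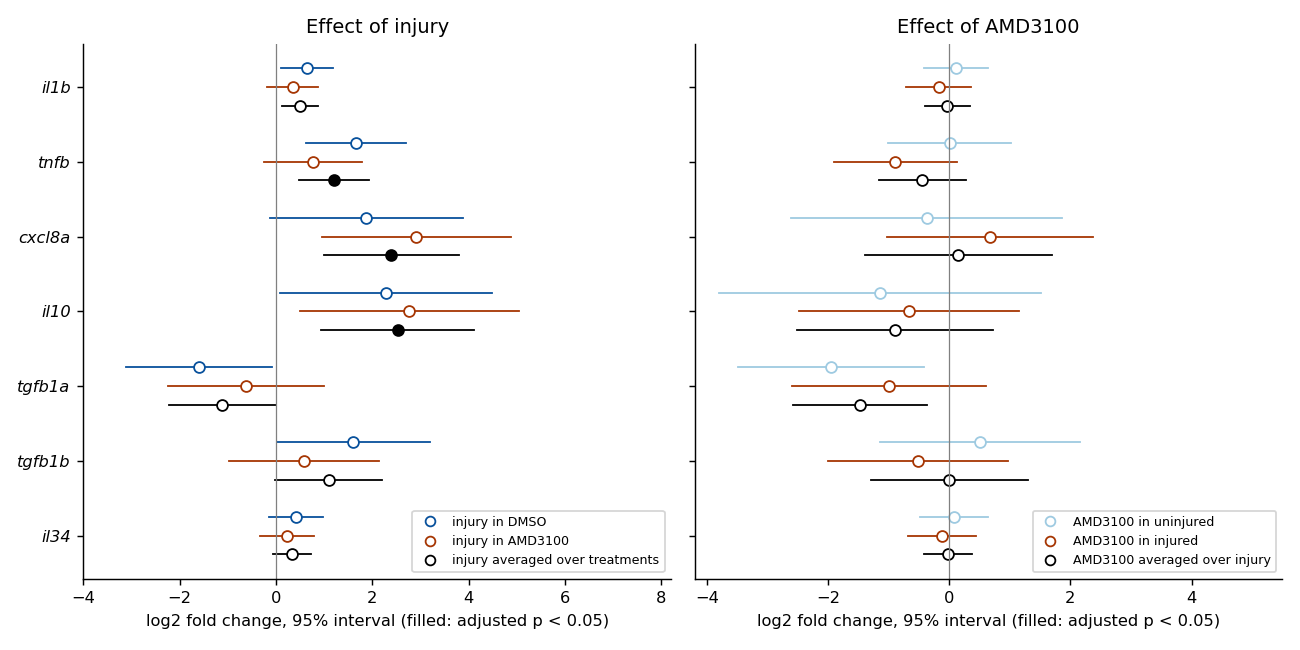
Log2 fold changes of the 7 tested cytokine genes with 95% intervals, for injury on the left and for AMD3100 on the right; filled points have an adjusted p under 0.05. The only filled points are tnfb at 1.21, cxcl8a at 2.39 and il10 at 2.52 for injury averaged over both treatments. The genes cxcl8a and il10 passed the count filter through injured libraries only, so their points are given as values.

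No cytokine gene passed the test for an effect of AMD3100. In injured larvae 0 of 7 passed in edgeR, as did 0% of all tested entries, with 0 of 7 at an unadjusted p under 0.05, and DESeq2 and limma-voom also called 0. In uninjured larvae 0 of 7 passed, beside 0.0118% of entries, and tgfb1a alone had an unadjusted p under 0.05. Averaged over injury the count was again 0 of 7, beside 0.0118% of entries, with tgfb1a alone at an unadjusted p under 0.05. DESeq2 and limma-voom called 0 of the 7 in these comparisons too. The shares of entries given here are those of the main edgeR fit. Other settings called up to 105 entries in injured larvae, 145 in uninjured larvae and 197 averaged over injury.

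After injury the tnfb levels in AMD3100, 148 to 189.6 CPM, were all below those in DMSO, 280.3 to 347 CPM, and tnfb was the only member so separated, as were 5.67% of tested entries. The log2 difference was -0.89 (SE 0.48, 95% interval -1.91 to 0.13, edgeR p 0.0823, adjusted p 0.928). The interval therefore reaches from 0.266-fold to 1.09-fold. The change with injury in AMD3100 minus that in DMSO was -0.90 for tnfb (SE 0.67, edgeR p 0.204, adjusted p 1.00), so the response to injury was not shown to differ between treatments. No cytokine gene passed that interaction test, beside 0% of entries, and none had an unadjusted p under 0.05.

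In uninjured larvae the tgfb1a levels were 1.34, 1.84 and 0.998 CPM with AMD3100, from 4, 20 and 4 counts, all below the 3.08 to 7.30 CPM of DMSO. It was the only member separated downwards, as were 6.02% of tested entries. The log2 difference was -1.95 (SE 0.72, 95% interval -3.50 to -0.41, edgeR p 0.0164, adjusted p 0.959). The gene passed the count filter through 3 uninjured and 1 injured DMSO libraries and 0 AMD3100 libraries. Its separation, interval and p here are therefore given as values only. In injured larvae tgfb1a had 0, 3 and 19 counts with AMD3100, and the log2 difference from DMSO was -0.99 (SE 0.75). The comparisons of injury in DMSO and of AMD3100 in uninjured larvae share the uninjured DMSO libraries, in which tgfb1a stood highest.

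For the abundant genes the intervals bound the size of an AMD3100 effect after injury. For il1b the log2 difference was -0.18, with a 95% interval from 0.612-fold to 1.28-fold. For il34 it was -0.11, with an interval from 0.626-fold to 1.36-fold. For the rare genes the intervals were wide, from 0.489-fold to 5.18-fold for cxcl8a and from 0.179-fold to 2.23-fold for il10. Without injured AMD3100 replicate 1 the log2 difference of cxcl8a went from 0.67 to 0.00.

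Around these cytokines, 208 genes in 8 lists were examined, the 8 cytokine genes included: 181 were found in the table and 87 passed the count filter. Among genes that carry Il1b and Tnf signals to NF-kB, 4 of 19 tested rose with injury averaged over treatments and none fell. Of all entries 7.97% rose and 8.01% fell, so that 16% passed in either direction. They were birc2, an inhibitor of apoptosis recruited to Tnf receptors, tnip1, a partner of the NF-kB brake A20, and nfkbiab and nfkbie, which encode inhibitors that hold NF-kB in the cytoplasm. The median log2 fold change of the 19 was 0.34, against -0.05 for all entries.

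The birc2 level was 223 to 252 CPM in uninjured DMSO, 613 to 787 in injured DMSO, 264 to 305 in uninjured AMD3100 and 625 to 875 in injured AMD3100. Its groups did not overlap in either treatment, and it rose by 1.54 (SE 0.23, edgeR adjusted p 0.00195) in DMSO and 1.40 (SE 0.23, edgeR adjusted p 0.00352) in AMD3100 on the log2 scale. The tnip1 gene also rose in both treatments, by 1.25 (SE 0.34, edgeR adjusted p 0.0440) and 1.5 (SE 0.33, edgeR adjusted p 0.0181). On leaving out each library in turn, birc2 passed in 12 of 12 fits in each treatment, and tnip1 in 3 in DMSO and 9 in AMD3100. Averaged over treatments nfkbiab rose by 0.86 (SE 0.18) and nfkbie by 1.02 (SE 0.26), with edgeR adjusted p 0.00386 and 0.0156.

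Of 9 tested genes on the route from Il10 to Stat3, 3 rose and 1 fell with injury averaged over treatments, beside 7.97% of all entries rising and 8.01% falling. The median of the 9 was 0.50, against -0.05 for all entries. The rises were in nfil3, an Il10-induced repressor in mammals, at 1.58 (SE 0.27), in socs3a, the feedback inhibitor of Stat3 signalling, at 1.04 (SE 0.23), and in the kinase gene jak1, at 0.50 (SE 0.15). The edgeR adjusted p-values were 0.00127, 0.00700 and 0.0366. The nfil3 relative nfil3.5 fell by 0.61 (SE 0.17, edgeR adjusted p 0.0269). On leaving out each library in turn, jak1 kept its call in 2 of 12 fits and nfil3.5 in 3, and both lost it with no filter. Levels of socs3a were 101, 73.0 and 136 CPM in uninjured DMSO and 194, 169 and 214 CPM in injured DMSO. They were 113, 90.4 and 120 CPM in uninjured AMD3100 and 366, 228 and 148 CPM in injured AMD3100, the 366 from the shallowest library.

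Of 11 tested genes for Tgfb activation and signalling, 2 rose and 2 fell with injury averaged over treatments, beside the same 7.97% and 8.01% of all entries. The inhibitory smad7 rose by 2.27 (SE 0.41) and the Smad corepressor gene skia by 1.31 (SE 0.23). The edgeR adjusted p-values were 0.00191 and 0.00144. The smad7 gene reached the filter level in 6 injured and 2 uninjured libraries. Its level was 1.45 to 3.65 CPM in uninjured DMSO and 6.88 to 8.63 CPM in injured DMSO. The matrix gene tgfbi, named for its induction by Tgfb, fell by 1.06 (SE 0.26, edgeR adjusted p 0.0119). The receptor-regulated Smad gene smad3a fell by 0.81 (SE 0.25, edgeR adjusted p 0.0363). On leaving out each library in turn, smad3a kept its call in 3 of 12 fits, those without replicate 1 of uninjured DMSO and without replicate 1 or 3 of injured AMD3100, and had an adjusted p of 0.0558 to 0.103 in the others. The median of the 11 was -0.11, against -0.05 for all entries.

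Of the 7 tested receptor genes, only csf1rb passed, and it fell; 1 of 7 is near the 16% of all entries that passed. It encodes a colony-stimulating factor 1 receptor, the receptor type that Il34 binds. Its counts were 18, 5 and 130 in uninjured DMSO, 1, 11 and 6 in injured DMSO, 17, 80 and 8 in uninjured AMD3100 and 0, 2 and 21 in injured AMD3100. All 6 injured libraries, at 0 to 1.71 CPM, were below the 6 uninjured ones, at 2.00 to 23.6 CPM, and the averaged log2 fold change was -3.15 (SE 0.56, edgeR adjusted p 0.00166). The count of 0 in injured AMD3100 replicate 1 allows up to 4.19 CPM, above the lowest uninjured level. At that depth the separation is therefore not resolved. Such a separation downwards was found in 4.11% of tested entries, and csf1rb passed the count filter through 5 uninjured and 0 injured libraries.

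The paralog csf1ra gave a log2 value of -0.14 (edgeR adjusted p 0.863). Both belong to the macrophage marker list, of which 14 of 16 genes were found. That list's summed share was 0.0698% to 0.0948% in uninjured DMSO and 0.0689% to 0.0901% in injured DMSO, and 0.101% to 0.133% and 0.0663% to 0.113% in the AMD3100 groups. Most of this share came from ctss2.1, and the part of macrophage RNA in the csf1rb result was not tested. The Cxcl8 receptor gene cxcr1 had a log2 value of 0.75 (edgeR adjusted p 0.0802), and il10ra and il10rb had values of -0.02 and 0.10.

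Among 16 tested genes for other secreted cytokines and chemokines, 2 rose and 1 fell averaged over treatments, a share near the 16% of all entries. The chemokine gene ccl38.6 rose by 4.03 (SE 0.60, edgeR adjusted p 0.000367), from 0 to 1.25 CPM in uninjured libraries to 2.80 to 18.3 CPM in injured ones, the side through which it passed the count filter. The chemokine genes ccl34a.4 and ccl34b.1 went in opposite directions, the former rising by 1.27 (SE 0.29, edgeR adjusted p 0.00905) and the latter falling by 1.80 (SE 0.44, edgeR adjusted p 0.0120, or 0.0509 without uninjured DMSO replicate 3). The cytokine gene il11b, of the Il6 family, rose in DMSO by 2.87 (SE 0.71, edgeR adjusted p 0.0290), from 3.80 to 5.84 CPM up to 21.2 to 47.9 CPM, and kept this call in 7 of 12 fits that each left out a library. With AMD3100 it stood at 1.00 to 14.3 CPM after injury and the fold change was -0.57 (SE 0.66). The difference between these responses was -3.43 (SE 0.97, edgeR p 0.00293, adjusted p 1.00) and failed the correction.

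Of 8 tested genes for cytokine processing and release, gsdmea, which encodes a pore-forming gasdermin, was the only one to pass, again near the 16% of all entries. It reached the filter level in injured libraries only and rose by 3.63 on the log2 scale averaged over treatments (SE 0.69, edgeR adjusted p 0.00247). Its counts were 0, 0 and 1 in uninjured DMSO and 13, 43 and 30 in injured DMSO. With AMD3100 they were 1, 13 and 3 in uninjured and 4, 44 and 11 in injured larvae. There the groups overlap: injured replicate 3, at 0.898 CPM, lay below uninjured replicate 2, at 1.19 CPM. Of 10 tested regulators of cytokine mRNA stability, the stabilizer gene elavl1a rose by 0.64 (SE 0.20) and zfp36l1a, from a family that promotes decay of AU-rich transcripts, fell by 2.06 (SE 0.60), so that 2 of 10 passed beside 16% of all entries. Their edgeR adjusted p-values were 0.0397 and 0.0296, and on leaving out each library in turn elavl1a passed in 6 of 12 fits and zfp36l1a in 7. Counts of zfp36l1a were 76, 24 and 102 in uninjured DMSO and 6, 34 and 32 in injured DMSO. With AMD3100 they were 27, 58 and 35 in uninjured and 0, 0 and 86 in injured larvae. That 86, at 7.02 CPM, lay within the 5.33 to 9.07 CPM of uninjured AMD3100. In the AMD3100 comparisons no listed gene passed.

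**Figure D4:**
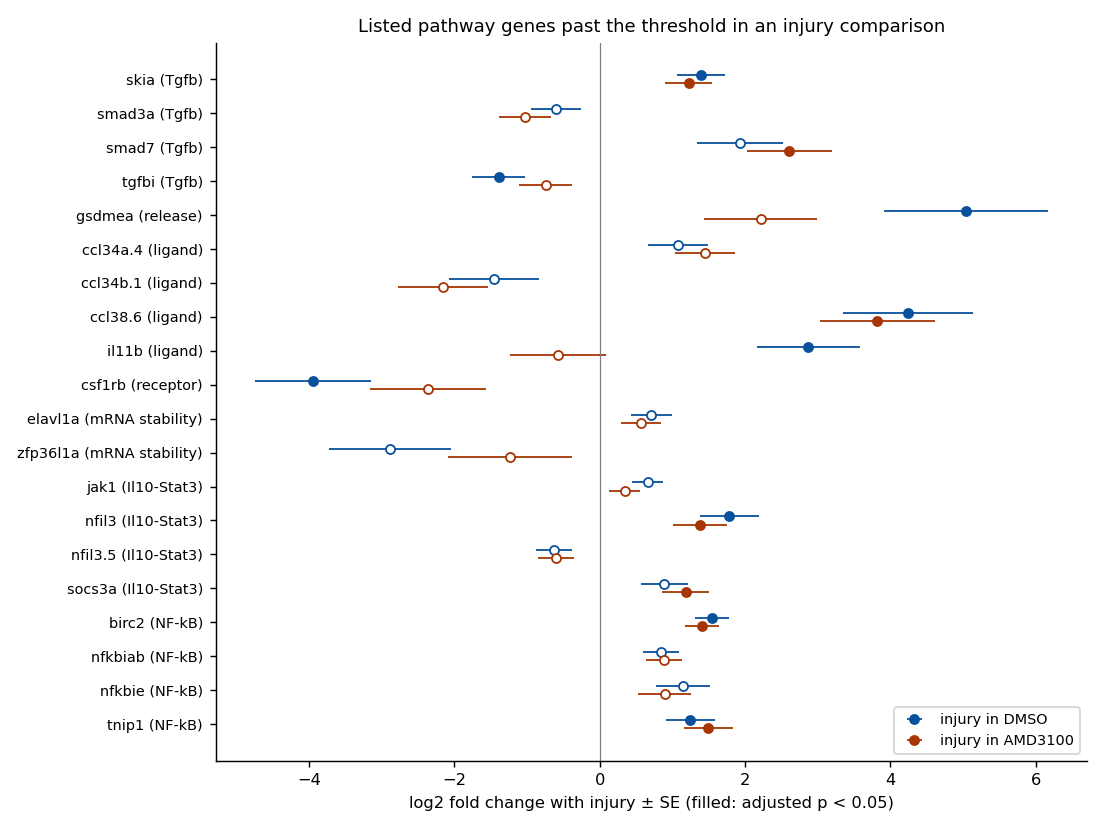
Log2 fold change with injury (± SE) in DMSO and in AMD3100 for the listed pathway genes that passed in at least one injury comparison, up to 4 per list and comparison; filled points have an adjusted p under 0.05 in that treatment. Filled in both treatments are birc2, tnip1, skia, nfil3 and ccl38.6, and il11b has opposite signs at 2.87 and -0.57.

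Calls within 1 treatment were often lost when a single library was left out. On leaving out each library in turn, skia passed in 7 of 12 fits in DMSO and 4 in AMD3100, nfil3 in 8 and 4, and ccl38.6 in 9 and 10. Of those filled in 1 treatment, csf1rb passed in 10 of 12 fits, gsdmea in 7 and tgfbi in 4 in DMSO, and smad7 in 10 and socs3a in 2 in AMD3100.

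Among the 94 listed genes that were found but did not pass the count filter, 27 had no count. Injured libraries held 56.5% of all counts in the table; their share was above this for 38 of the other 67 genes and below it for 29. Counts came from injured libraries alone for 14 genes and from uninjured libraries alone for 11. The genes named next were picked after their counts were seen, in both directions. The Il6-family gene m17 had 83 counts in injured and 10 in uninjured libraries, and cxcl8b.1, a relative of cxcl8a, had 18 and 3. The gene tnfaip3, for the NF-kB brake A20, had 11 and 0, and csf3a, for a granulocyte colony-stimulating factor, had 13 and 0. The il1fma gene, of the Il1 family, had 40 counts in injured DMSO, 3 in injured AMD3100, 9 in uninjured DMSO and 5 in uninjured AMD3100. In the other direction tab1, for a partner of the kinase Tak1, had 6 counts in injured and 27 in uninjured libraries, the Tgfb receptor gene tgfbr1a 2 and 15, and nlrp3, for an inflammasome sensor, 0 and 8. No count of il6 was found in any library, which allows up to 3 counts over the whole table.

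The genes whose log2 CPM (plus 1) followed each cytokine most closely over the 12 libraries were found among 7466 tested single-gene entries with a symbol, and the Pearson correlations describe libraries that share groups and depth. For il1b they were nhlrc2 (0.96), rnf139 (0.92) and rhof (0.90), and for tnfb rhot1a (0.95), slc12a7b (0.92) and stx4 (0.92). For cxcl8a they were galcb (0.96), rab3ip (0.95) and sult5a1 (0.95), and for il10 erbin (0.97), mapkapk2a (0.93) and klf12a (0.93). For tgfb1a they were slc35e4 (0.93), znf1154 (0.93) and mical1 (0.92), and for tgfb1b ddx43 (0.95), exd3 (0.92) and tmem68 (0.92). For il34 they were dnmbp (0.97), camta1b (0.86) and mmp13a (0.85), a neutrophil-list collagenase. The 11 symbols of that list matched 12 entries, and the mmp13a value is that of a single entry. The 99th percentile over all candidates lay between 0.67 for il34 and 0.88 for cxcl8a.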

How the data were processed

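Transcripts of 12 pools of sorted mpx:GFP-positive cells were sequenced with an adapted CEL-seq protocol, which reads transcript ends, per the labels' protocols. The authors deposited raw counts per gene with no normalization, in 1 table. BWA, DESeq2 1.38 and build GRCz11 are named in the submitters' processing notes. Whether molecular identifiers or strand entered the counting could not be read from these sources. Sequences and coordinates of the genes were not used here. The 88 spike-in entries were left out, and 5877 entries joining several genes were kept as deposited, of which 3 hold a cytokine gene, with 2 counts in all.

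The tests were run with edgeR 4.0.16 (R 4.3.3): filterByExpr by group (minimum count 10, minimum total 15), TMM factors, 1 coefficient per group over all 12 libraries, and the quasi-likelihood F test with Benjamini-Hochberg adjustment over 8453 entries at 0.05. The common biological coefficient of variation was 0.38. SEs were derived from the F statistic. Alternatives were DESeq2 1.42.0, limma-voom (limma 3.58.1), RLE factors, no filter, the contrast's groups alone, a replicate block, removal of mitochondrial and hemoglobin genes, and leaving out each library. The script was tested on simulated counts. Named genes are the 8 cytokine genes, up to 4 listed genes per list and comparison past the threshold by smallest p, and the 3 closest correlates of each cytokine gene. Beyond this rule, csf1ra, cxcr1, il10ra, il10rb and the listed genes below the count filter were named after their values were seen. The cytokine genes and the lists were chosen with earlier results of these data known. For the Tgfb list, 1 gene is not reported here and was left out of the list's counts and median.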

Additional observations from a re-analysis of the deposited data

How the results depend on the processing

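Of the 12 libraries, injured AMD3100 replicate 1 was the shallowest. The 5 genes with few counts were tnfa, cxcl8a, il10, tgfb1a and tgfb1b. Those of them that passed the count filter had wide intervals, and the part of depth in this was not tested. No cytokine gene passed in the AMD3100 comparisons or in the interaction under the alternatives run. In DMSO, where edgeR called 0 of 7 cytokine genes for injury, DESeq2, limma-voom and no filter each called 1 (tnfb), and leaving out each library gave 0 to 1. In AMD3100, DESeq2 called 1 (cxcl8a) instead of 0. Averaged over treatments the count was 3, with 2 to 4 under other settings and 0 to 3 on leaving out each library, the 0 coming when replicate 3 of either DMSO group was left out. The causes were not tested. No pairing of libraries by replicate number was shown. Correlations of same-numbered deviations ran from -0.12 to 0.15, and 1 of 18 was over 0.1. Of 12 libraries, 4 correlated best with their own number. With 3 libraries per group these values cannot tell whether libraries shared a clutch or day. With the replicate block, tnfb, cxcl8a and il10 passed for injury averaged over treatments (adjusted p 0.0426, 0.0214 and 0.0414 in edgeR), and entries called went from 439 to 353 in DMSO and from 458 to 325 in AMD3100. The genes cxcl8a and il10 reached the filter level in injured libraries only. Their calls, and the counts over the 7 under each setting, are therefore given as values and support nothing. With no filter 20264 entries were tested. Over all entries, DESeq2 called 723, no filter 701 and the contrast's groups alone 722 for injury in DMSO. The same settings gave 731, 714 and 165 for injury in AMD3100, and limma-voom 707. Entries called for AMD3100 also depended on the setting, with 0 to 105 in injured larvae and 0 to 145 in uninjured larvae. Averaged over injury the range was 0 to 197, and for the interaction 0 to 68. Leaving out each library gave up to 72, 2, 161 and 2 in the same order. Signs turned only in AMD3100 and interaction contrasts whose intervals include 0. For AMD3100 in uninjured larvae, the log2 value of tnfb went from 0.01 to -0.03912 (DESeq2), -0.03568 (RLE factors), -0.01898 (contrast's groups alone) and -0.0119 (without mitochondrial and hemoglobin genes). For AMD3100 averaged over injury, cxcl8a went to -0.1497 (limma-voom) and tgfb1b to 0.002375 (RLE factors) and 0.04204 (replicate block). The interaction of il10 went to -0.2486 with the replicate block. Leaving out each library gave these ranges. For AMD3100 in injured larvae, il1b ran from -0.2499 to 0.002419 and il34 from -0.2222 to 0.09121. For AMD3100 in uninjured larvae, il1b ran from -0.02975 to 0.2678, tnfb from -0.3329 to 0.9677, cxcl8a from -0.7331 to 0.1299 and il34 from -0.1184 to 0.178. Averaged over injury, il1b ran from -0.1085 to 0.05848, tnfb from -0.6148 to 0.04945, cxcl8a from -0.1793 to 0.4145, tgfb1b from -0.2363 to 0.9233 and il34 from -0.111 to 0.07122. For the interaction, tgfb1a ran from -0.2219 to 1.403 and il34 from -0.3064 to 0.03999.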
